A study of Mus musculus with 30 samples.

Results

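The genes described are those of the mitochondrial ribosome, taken as every gene whose symbol begins with Mrpl or Mrps followed by a digit and that has a probe set annotated to it alone. There were 76 such genes of 18193 genes named on the array, 47 of the large subunit (Mrpl) and 29 of the small subunit (Mrps), and all 76 had a probe set above the filter on weak signal, as did 12156 genes in all. The mitochondrial ribosome translates the few messages of mitochondrial DNA, all of which encode subunits of the respiratory chain and of ATP synthase. Its RNAs come from mitochondrial DNA, while every one of its proteins is encoded in the nucleus, made in the cytosol and imported. Some of these proteins have bacterial counterparts and others are found in mitochondria alone. Liver is rich in mitochondria, and PPARα, a nuclear receptor that fatty acids and fibrate-like compounds activate, drives many genes of mitochondrial and peroxisomal fatty acid oxidation there.

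Expression was measured in liver (left lobe) of male wild-type mice (WT, 129S1/SvlmJ) and PPARα-null mice (Null, 129S4/SvJae-Pparatm1Gonz/J), 6 to 9 months old. Perfluorooctane sulfonate (PFOS), a fluorinated surfactant that persists in the environment, was given as its potassium salt in 0.5% Tween 20, once a day by gavage for 7 days, at 0, 3 or 10 mg/kg. There were 5 mice in each of the 6 groups and 1 array per mouse, and the 0 mg/kg mice of each genotype were dosed with the vehicle. The Null animals lack the receptor in every cell of the body, and the 2 genotypes are different substrains of one inbred background, so that receptor and substrain cannot be told apart in a comparison of genotypes. Liver was measured as whole tissue, so fewer cells of a type and less RNA per cell cannot be told apart. The array medians lay between 5.60 and 5.70 on the log2 scale, and the correlations between arrays between 0.979 and 0.997.

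A pair of arrays stood apart from their label. Ppara itself (mean of its 3 probe sets) measured 10.62, 10.45 and 10.33 in replicates 1 to 3 of the WT 0 mg/kg group and 8.66 and 8.74 in replicates 4 and 5, against 9.93 to 10.77 in the treated WT arrays and 8.78 to 9.81 in the Null arrays. Whether these probe sets lie in the disrupted part of the gene is not given in the sources used here. Cyp2b10, a cytochrome P450 gene known as a target of the receptor CAR, measured 7.81 to 8.20 in replicates 1 to 3 of that group and 12.80 and 12.93 in replicates 4 and 5, against 10.47 to 13.19 in all arrays of the treated groups and 6.78 to 9.06 in Null 0 mg/kg. Both arrays were kept in the group their label names, and the counts, medians and called changes of the members that rest on that group are given with and without them. For values without them the fit and the choice of probe set were made anew on the remaining arrays, which changed the probe set of 3 members (Mrpl15, Mrpl28 and Mrpl50).

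Promoter sequences were looked up because many members changed in the same direction. RefSeq promoter windows (GRCm38.p6, 250 bases before to 50 after the transcription start) matched 67 of the 76 members, with 73 windows. Motifs that are known from promoters of nuclear genes for mitochondrial proteins were searched on both strands, and no 2 of them overlapped in a member's window. CCGGAAG, the core that ETS factors such as GABPA bind, stood in 25 of the 73 windows (34.2%) against 8.86% of all 32851 windows of the table. AAGATGGC, as bound by YY1, stood in 12 (16.4%) against 2.75%, and GCATGCGC, as bound by NRF1, in 8 (11.0%) against 2.71%. At least 1 of the 3 stood in 37 windows (50.7%, against 13.3% of all windows). GCATGCGC was found in 7 of the 46 large subunit windows (15.2%) and in 1 of the 27 of the small subunit (3.70%), while CCGGAAG was found in 14 (30.4%) and 11 (40.7%). A match describes the letters in a window and not a site of binding. The 60 bases before the start are shown for the members with the 3 smallest p in WT at 10 mg/kg (Mrpl17, Mrpl45 and Mrpl16, all higher) and in Null at 10 mg/kg (Mrpl52, Mrps33 and Mrps18c, all lower), whether or not they hold a motif. They are printed as in the table, 5′ to 3′ along the gene, with any motif in capitals.
Mrpl17, chr7:105811088-105811147, minus strand: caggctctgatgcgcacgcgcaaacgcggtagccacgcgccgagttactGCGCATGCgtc
Mrpl45, chr11:97315656-97315715, plus strand: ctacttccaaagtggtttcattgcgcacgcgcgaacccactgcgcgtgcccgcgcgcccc
Mrpl16, chr19:11770355-11770414, plus strand: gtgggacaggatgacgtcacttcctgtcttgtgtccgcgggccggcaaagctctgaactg
Mrpl52, chr14:54426849-54426908, plus strand: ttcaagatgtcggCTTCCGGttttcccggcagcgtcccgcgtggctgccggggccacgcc
Mrps33, chr6:39810937-39810996, minus strand: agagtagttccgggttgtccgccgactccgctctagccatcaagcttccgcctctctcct
Mrps18c, chr5:100798699-100798758, plus strand: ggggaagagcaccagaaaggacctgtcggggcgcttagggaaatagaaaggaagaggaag
The capitals are GCGCATGC, which is GCATGCGC on the other strand, in Mrpl17 and CTTCCGG, the reverse complement of CCGGAAG, in Mrpl52. The other 4 stretches hold none of the motifs. The start used for Mrpl45 lies inside the span of its gene (97314923 to 97329920 on chromosome 11). Its stretch is therefore within the gene, while the others end where their gene begins. Over the whole windows, CCGGAAG stood in 4 of the 11 windows of the members called higher in WT at 10 mg/kg (36.4%). It stood in 12 of the 24 windows of the members called lower in Null at 3 or 10 mg/kg (50.0%). GCATGCGC stood in 2 windows of each set (18.2% and 8.33%) and AAGATGGC in 2 and 4 (18.2% and 16.7%). Windows were found for 11 of the 16 members called higher in WT and for 23 of the 24 called lower in Null.

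The mean log2 level of the members was highest at 10 mg/kg in WT mice and at 0 mg/kg in Null mice. For the 47 large subunit genes, the mean per array averaged 9.53 ± 0.07 (SD, n = 5) in WT 0 mg/kg, 9.60 ± 0.12 in WT 3 mg/kg and 9.71 ± 0.08 in WT 10 mg/kg. The 5 arrays of WT 10 mg/kg lay between 9.62 and 9.84, and those of WT 0 mg/kg between 9.44 and 9.62, where replicate 5, one of the arrays that stood apart, was the highest. Without replicates 4 and 5 the WT 0 mg/kg mean was 9.49 ± 0.05 (n = 3) for the large and 9.22 ± 0.05 for the small subunit. In Null mice the same mean was 9.66 ± 0.09 at 0 mg/kg, 9.41 ± 0.13 at 3 mg/kg and 9.48 ± 0.11 at 10 mg/kg. The Null 0 mg/kg arrays ran from 9.57 to 9.77, against 9.26 to 9.59 at 3 mg/kg and 9.37 to 9.60 at 10 mg/kg, so that the groups met at their edges. The 29 small subunit genes followed the same order, with 9.27 ± 0.08, 9.32 ± 0.10 and 9.46 ± 0.08 in WT and 9.38 ± 0.07, 9.14 ± 0.11 and 9.24 ± 0.14 in Null mice at 0, 3 and 10 mg/kg. No test was run on these means, which describe the arrays.

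**Figure D1:**
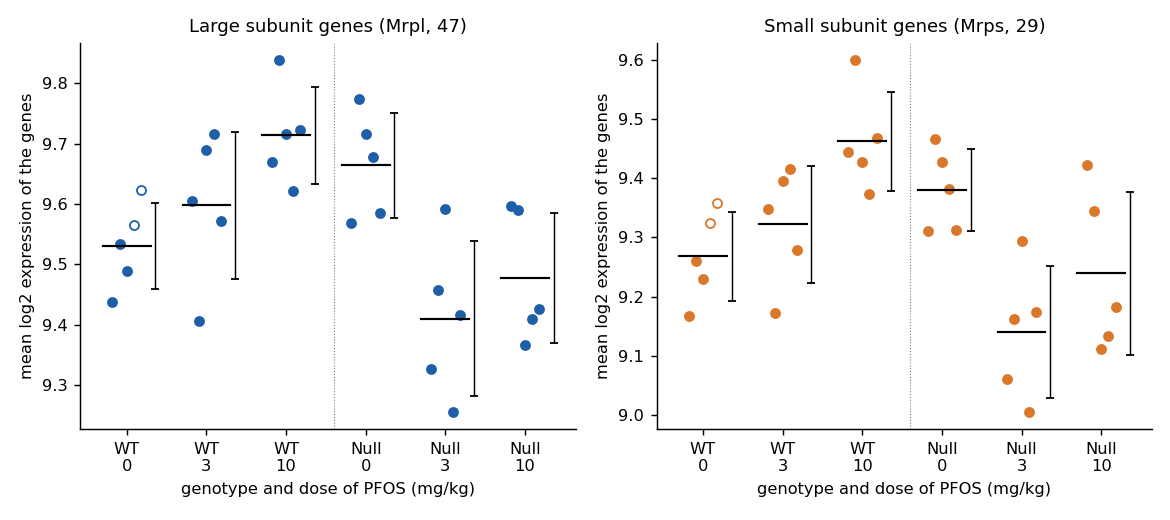
Mean log2 expression of the 47 large (left) and 29 small (right) subunit genes in each array (points), by genotype and dose of PFOS in mg/kg, with the group mean (line) and SD (bar, n = 5). Open points are WT 0 mg/kg replicates 4 and 5. For the large subunit the WT means rise from 9.53 to 9.71 and the Null means lie at 9.66 without PFOS and at 9.41 and 9.48 with it.

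In WT mice given 10 mg/kg, 16 of the 76 members rose and 0 fell against WT 0 mg/kg by limma (adjusted p under 0.05, Benjamini-Hochberg over all probe sets kept). Over all genes tested, 7.53% were called higher and 5.54% lower. The called members were 9 of the 47 large subunit genes and 7 of the 29 small subunit genes, with log2 changes of 0.28 to 0.60, or 1.21- to 1.52-fold. Over all 76 members the median log2 change was 0.18 and 71 lay above 0, while the median over all genes tested was -0.0041 and 49% lay above 0. At an unadjusted p under 0.05, 39 members were higher and 0 lower, against 1999 higher and 1898 lower of the 12156 genes tested. By the methods' t-test after Benjamini-Hochberg 14 members were higher and 0 lower.

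Mrpl17, the counterpart of bacterial L17, measured 11.38, 11.54, 11.32, 11.26 and 11.37 in the WT 10 mg/kg arrays and 10.72, 10.85, 10.77, 11.01 and 10.95 in the WT 0 mg/kg arrays (log2 values of replicates 1 to 5 in that order, here and in what follows). All 5 treated arrays lay above all 5 control arrays, and the log2 change was 0.51 ± 0.09 (SE, adjusted p = 0.00224). Without the 2 arrays that stood apart it was 0.59 (adjusted p = 0.000881). Mrpl45, which sits at the peptide exit of the large subunit and holds the ribosome to the inner membrane, measured 9.27, 9.31, 9.27, 9.04 and 9.08 against 8.77, 8.79, 8.90, 8.89 and 8.95. The groups did not overlap, and the change was 0.33 ± 0.07 (SE, adjusted p = 0.00979), or 0.37 (adjusted p = 0.00605) without control replicates 4 and 5. Mrpl16, the counterpart of bacterial L16 near the catalytic centre, measured 10.83, 10.93, 10.57, 10.71 and 10.90 against 10.19, 10.29, 10.30, 10.53 and 10.52. Control replicates 4 and 5 were the highest of their group and close to treated replicate 3, and the change of 0.42 ± 0.09 (SE, adjusted p = 0.0116) became 0.53 without them.

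Mrps18b, one of the 3 mammalian relatives of bacterial S18, measured 10.51, 10.54, 10.15, 10.32 and 10.52 in WT 10 mg/kg and 9.75, 9.88, 9.90, 10.16 and 10.19 in WT 0 mg/kg. Control replicates 4 and 5 reached the lowest treated array, so that the groups overlapped. The change was 0.43 ± 0.10 (SE, adjusted p = 0.0162), and 0.56 without both arrays. Mrpl54, a large subunit protein found in mitochondria alone, measured 9.17, 9.62, 9.13, 9.11 and 9.36 against 8.45, 8.46, 8.50, 8.93 and 9.04. It had the largest change of the members, 0.60 ± 0.14 (SE, adjusted p = 0.0178) or 1.52-fold, and 0.81 without control replicates 4 and 5, which lay between the other controls and the treated arrays.

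The next members by p were Mrpl38, a protein of the central protuberance (0.36 (adjusted p = 0.0179)), Mrpl51 (0.34 (adjusted p = 0.0193)), Mrps6, the counterpart of bacterial S6 (0.37 (adjusted p = 0.0197)), Mrps36 (0.36 (adjusted p = 0.0198)) and Mrps18a (0.36 (adjusted p = 0.0284)). Mrps36 keeps its ribosomal name but is now known as a subunit of the 2-oxoglutarate dehydrogenase complex. The other 6 called members were Mrpl14, Mrpl15, Mrpl19, Mrps2, Mrps7 and Mrps34, with log2 changes of 0.28, 0.37, 0.36, 0.34, 0.32 and 0.29. Mrpl13, the counterpart of bacterial L13, had the third largest value, 0.43 ± 0.14 (SE), without passing the test (adjusted p = 0.0578). The 5 lowest values were those of Mrps31 (-0.13), Mrpl18 (-0.07), Mrps9 (-0.04), Mrpl4 (-0.02) and Mrpl27 (-0.01), and their adjusted p ranged from 0.225 to 0.957. The value of Mrps9 came from a weak probe set (mean 6.32). Its other kept probe sets (means 8.11, 7.47 and 6.02) changed by 0.18, 0.11 and 0.09, none of them called.

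Without control replicates 4 and 5, 28 members were called higher and 0 lower (17 large and 11 small, against 14.1% of all genes called higher), all 16 named above among them with log2 changes of 0.35 to 0.81, and the median of the 76 was 0.22. The count also turned on single arrays. It was 5, 6, 9 and 27 without WT 0 mg/kg replicate 1, 2, 3 and 5, and 9, 7 and 9 without WT 10 mg/kg replicate 1, 2 and 5. No member was called lower in any of these fits.

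In WT mice given 3 mg/kg, 0 of the 76 members were called in either direction by limma, against 0.247% of all genes. The median change was 0.06 and 61 members (80.3%) lay above 0, against 48.9% of all genes. At an unadjusted p under 0.05, 2 members were higher and 0 lower, against 381 higher and 423 lower of the 12156 genes tested. By the methods' t-test 0 members were called, at its unadjusted limit or after Benjamini-Hochberg. Without control replicates 4 and 5 the count stayed at 0, the median was 0.10 and 13 members passed the unadjusted threshold, all of them higher. Between 10 and 3 mg/kg, 3 members were higher and 0 lower, against 3.77% of all genes called higher. They were Mrpl17 (0.37 (adjusted p = 0.0285)), Mrpl54 (0.53 (adjusted p = 0.0439)) and Mrps6 (0.33 (adjusted p = 0.0442)), and the share of members called, 3.95%, was near that of all genes. Replicate 2 of WT 3 mg/kg was low in many members, with a large subunit mean of 9.41 against 9.57 to 9.72 in the other 4 arrays of the group, and without it none of the 3 was called. The count was also 0 without WT 3 mg/kg replicate 1 or 3 or WT 10 mg/kg replicate 1, 2 or 5, 1 without WT 3 mg/kg replicate 4 or 5, and 7 without WT 10 mg/kg replicate 3.

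In Null mice given 3 mg/kg, 23 of the 76 members fell against Null 0 mg/kg and 0 rose, against 3.13% of all genes called lower and 2.02% called higher. They were 16 of the 47 large and 7 of the 29 small subunit genes, with log2 changes between -0.49 and -0.24. The median over the 76 was -0.26 and 72 lay below 0, with 50 lower and 0 higher at an unadjusted p under 0.05. Over all genes tested, 22.7% lay below 0 here and above 0 in WT at 10 mg/kg, and 26.6% lay below 0 in both. Except in WT mice on all arrays, counts at this unadjusted threshold are given without the share over all genes and describe the genes counted. At 10 mg/kg, 12 members fell (9 large and 3 small) and 0 rose, against 4.96% called lower and 4.14% called higher among all genes. The median there was -0.19, 65 members lay below 0, and 38 were lower and 2 higher at an unadjusted p under 0.05. By the methods' t-test after Benjamini-Hochberg, 21 members were lower at 3 mg/kg and 8 at 10 mg/kg, and 0 were higher. Both doses were compared with the same 5 control arrays. Between 10 and 3 mg/kg, 0 members were called by limma, as was 0% of all genes, with a median of 0.09, 9 members higher and 0 lower at an unadjusted p under 0.05, and 0 by either form of the methods' t-test.

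Mrpl52, a large subunit protein found in mitochondria alone, measured 10.15, 10.50, 10.51, 10.52 and 10.53 in Null 0 mg/kg, 9.80, 10.00, 10.18, 9.94 and 9.88 in Null 3 mg/kg and 10.18, 10.01, 9.81, 9.98 and 9.90 in Null 10 mg/kg. Control replicate 1 lay among the treated arrays and the other 4 lay above all of them. The changes were -0.49 ± 0.09 (SE, adjusted p = 0.0107) at 3 mg/kg and -0.47 ± 0.09 (SE, adjusted p = 0.00873) at 10 mg/kg. Mrps33, of the small subunit, measured 9.59, 9.85, 9.79, 9.68 and 9.71 without PFOS, 9.26, 9.34, 9.42, 9.28 and 9.41 at 3 mg/kg and 9.45, 9.43, 9.35, 9.23 and 9.46 at 10 mg/kg. No treated array reached a control array, and the changes were -0.38 ± 0.07 (SE, adjusted p = 0.00807) and -0.34 ± 0.07 (SE, adjusted p = 0.00932). Mrps18c, the relative of bacterial S18 that takes its place in the small subunit, measured 10.05, 10.26, 10.30, 10.22 and 10.15 without PFOS and 9.71, 9.93, 9.84, 9.74 and 9.84 at 10 mg/kg. These groups did not overlap, with a change of -0.38 ± 0.08 (SE, adjusted p = 0.0119), while at 3 mg/kg it was -0.35 (adjusted p = 0.0275).

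Mrpl27, whose bacterial counterpart L27 reaches into the catalytic centre, measured 10.97, 11.30, 11.28, 11.12 and 11.19 in Null 0 mg/kg and 10.77, 10.85, 10.87, 10.93 and 10.85 in Null 10 mg/kg. The groups were separate, and the change was -0.32 ± 0.07 (SE, adjusted p = 0.0148), with -0.30 (adjusted p = 0.0306) at 3 mg/kg. In WT mice at 10 mg/kg the same gene changed by -0.01 ± 0.07 (SE). Mrpl13 measured 8.28, 8.74, 8.44, 8.52 and 8.34 without PFOS and 8.07, 8.10, 7.73, 7.9994 and 7.90 at 10 mg/kg, again without overlap, and the change of -0.50 ± 0.12 (SE, adjusted p = 0.0222) was the largest fall of the members at that dose. Mrpl13 changed at 3 mg/kg by -0.31 ± 0.12 (SE, adjusted p = 0.184) and was not called.

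Further members called at 10 mg/kg were Mrpl20 (-0.35 (adjusted p = 0.0257)), Mrpl33 (-0.35 (adjusted p = 0.0279)), Mrpl22, whose bacterial counterpart lines the exit tunnel (-0.32 (adjusted p = 0.0361)), Mrpl42 (-0.34 (adjusted p = 0.0385)), Mrpl55 (-0.31 (adjusted p = 0.0454)), Mrpl34 (-0.37 (adjusted p = 0.0469)) and Mrps25 (-0.36 (adjusted p = 0.0476)). The same 7 changed at 3 mg/kg by -0.43, -0.37, -0.43, -0.36, -0.38, -0.45 and -0.44. Called at 3 mg/kg with a larger change than at 10 mg/kg were Mrpl57 (-0.46 against -0.23), Mrpl23 (-0.46 against -0.26), Mrps16 (-0.42 against -0.30), Mrpl21 (-0.42 against -0.21), Mrps14 (-0.33 against -0.17) and Mrps24, the mitochondrial S3 (-0.32 against -0.20), none of which was called at 10 mg/kg. The same held for Mrpl35 (-0.39 against -0.24), Mrpl58 (-0.35 against -0.20), Mrps12 (-0.35 against -0.20), Mrpl11 (-0.29 against -0.26), Mrpl41 (-0.26 against -0.16) and Mrpl12 (-0.24 against -0.16). As 0 members differed between the doses themselves, these pairs are not shown to differ by dose. The 5 highest values at 10 mg/kg were those of Mrps2 (0.26 (adjusted p = 0.141)), Mrpl15 (0.21), Mrps5 (0.16), Mrpl10 (0.11) and Mrps7 (0.09), and at 3 mg/kg those of Mrpl50 (0.20 (adjusted p = 0.509)), Mrpl15 (0.09), Mrps5 (0.07), Mrps2 (0.05) and Mrpl10 (-0.02), and none of them passed the test.

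The counts in Null mice also turned on single arrays. At 3 mg/kg the count was 6, 6, 7 and 14 without Null 0 mg/kg replicate 2, 3, 4 and 5, and 7, 9, 12 and 12 without Null 3 mg/kg replicate 1, 2, 4 and 5. At 10 mg/kg it was 4, 5 and 4 without Null 0 mg/kg replicate 2, 3 and 4, 6, 7 and 4 without Null 10 mg/kg replicate 3, 4 and 5, and 23 without Null 10 mg/kg replicate 1. No member was called higher in any of these fits. A shift of each array to the same median left 13 members called at 3 mg/kg and 7 at 10 mg/kg, all of them lower.

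**Figure D2:**
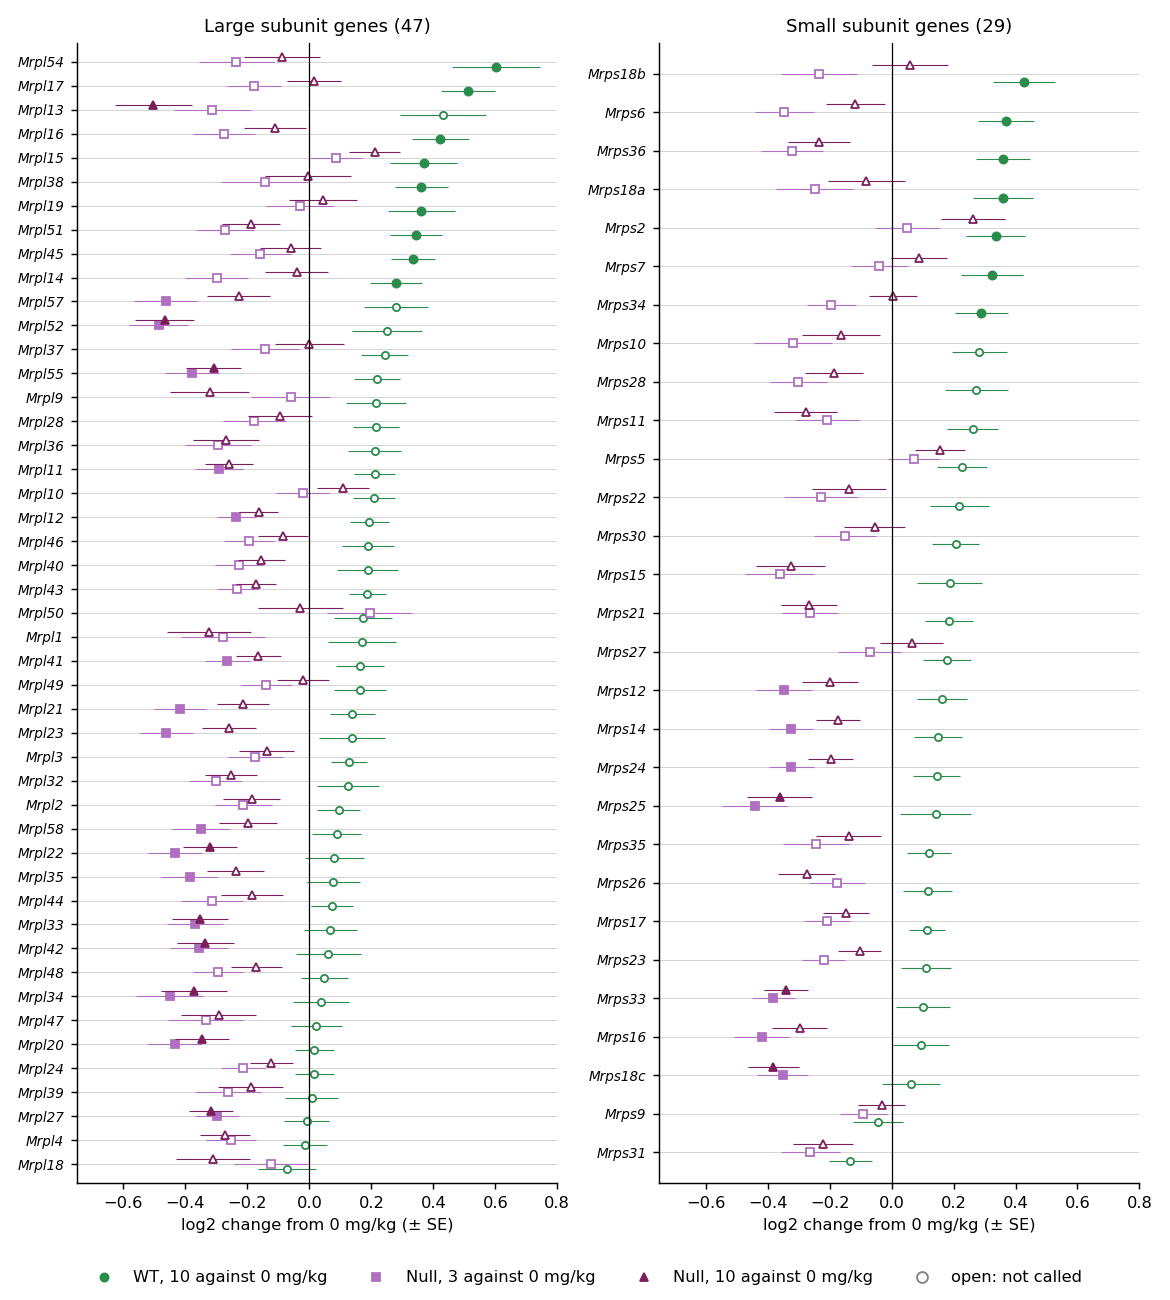
Log2 change from 0 mg/kg (horizontal axis, points with SE bars) of each large (left) and small (right) subunit gene in WT at 10 mg/kg (circles), Null at 3 mg/kg (squares) and Null at 10 mg/kg (triangles), ordered by the change in WT. Filled points passed the test. The filled circles lie right of 0, from 0.28 to 0.60, and the filled squares and triangles lie left of 0, from -0.50 to -0.24.

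The difference between the genotypes in the response was tested in a fit of all 30 arrays. At 10 mg/kg, 16 of the 76 members (10 large and 6 small) had a lower response in Null than in WT mice and 0 a higher one, against 3.03% and 0.749% of all genes. The median difference was -0.36 on the log2 scale, 75 of the 76 lay below 0, and 59 passed an unadjusted p under 0.05, all lower. The counts in this last sentence are given for the members alone, without the share over all genes. Without WT 0 mg/kg replicates 4 and 5, 24 members were called (14 large and 10 small, against 3.73% of all genes called lower), with a median of -0.39, and the 16 called on all arrays were all among them. For 3 mg/kg, 5 members had a lower response in Null mice and 0 a higher one, against 0.995% of all genes called lower. These were Mrpl11 (-0.41 (adjusted p = 0.035)), Mrpl21 (-0.44 (adjusted p = 0.0443)), Mrps24 (-0.42 (adjusted p = 0.0449)), Mrpl12 (-0.33 (adjusted p = 0.0467)) and Mrpl20 (-0.42 (adjusted p = 0.0472)). Without the same 2 arrays 0 were called at 3 mg/kg by limma (against 0.189% of all genes), and these 5 were then between -0.48 and -0.37, although the median moved from -0.32 to -0.37 and 58 members were lower at an unadjusted p under 0.05.

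Mrpl11, which forms the base of the stalk that elongation factors bind, had the smallest p at 10 mg/kg. It measured 8.75, 8.85, 8.78, 8.75 and 8.95 in WT 0 mg/kg and 8.96, 9.18, 9.02, 8.98 and 9.00 in WT 10 mg/kg, and 8.83, 9.05, 9.01, 9.07 and 8.86 in Null 0 mg/kg and 8.86, 8.74, 8.64, 8.64 and 8.66 in Null 10 mg/kg. The WT groups did not overlap, the Null groups met at Null 10 mg/kg replicate 1, and the difference in response was -0.47 ± 0.10 (SE, adjusted p = 0.00825), or -0.49 without WT 0 mg/kg replicates 4 and 5. Neither change was called on its own (0.21 (adjusted p = 0.0559) in WT and -0.26 (adjusted p = 0.0504) in Null mice). These values come from a probe set with a mean of 8.86. The brightest probe set of Mrpl11 (mean 9.90) differed in response by -0.35 (adjusted p = 0.132) and was not called. Another (mean 7.54) differed by -0.40 (adjusted p = 0.0284). Mrpl13 had the largest difference, -0.94 ± 0.19 (SE, adjusted p = 0.00829) and -1.03 without both arrays. Its WT 10 mg/kg arrays measured 8.30, 8.67, 8.51, 8.12 and 8.32 and its WT 0 mg/kg arrays 7.85, 7.78, 7.93, 8.08 and 8.12, which met where control replicate 5 and treated replicate 4 lay. Mrpl52 differed by -0.72 ± 0.15 (SE, adjusted p = 0.0086) and by -0.79 without both arrays, with 10.24, 10.45, 10.37, 10.24 and 10.33 in WT 10 mg/kg and 9.98, 9.95, 10.10, 10.13 and 10.23 in WT 0 mg/kg, where all treated arrays lay above all control arrays.

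Mrpl55, a large subunit protein found in mitochondria alone, measured 9.09, 9.10, 9.22, 9.23 and 9.12 in WT 0 mg/kg, 9.39, 9.48, 9.33, 9.23 and 9.41 in WT 10 mg/kg, 9.12, 9.36, 9.43, 9.33 and 9.18 in Null 0 mg/kg and 9.21, 9.06, 8.83, 8.92 and 8.86 in Null 10 mg/kg. Its WT groups were separate and its Null groups overlapped, and the response differed by -0.53 ± 0.11 (SE, adjusted p = 0.0107), or -0.54 without WT 0 mg/kg replicates 4 and 5. Mrps36 measured 8.92, 8.80, 8.80, 8.88 and 8.93 in WT 0 mg/kg, 9.18, 9.40, 9.26, 9.10 and 9.20 in WT 10 mg/kg, 8.64, 9.04, 8.96, 8.94 and 8.86 in Null 0 mg/kg and 8.95, 8.72, 8.45, 8.58 and 8.56 in Null 10 mg/kg. Here too the WT groups were separate and the Null groups overlapped, with a difference of -0.59 ± 0.13 (SE, adjusted p = 0.0149) and of -0.62 without both arrays. The next members were Mrpl12, Mrpl43, Mrpl51, Mrps11 and Mrps33, with differences of -0.36, -0.36, -0.53, -0.54 and -0.44, and the other 6 were Mrpl16, Mrpl17, Mrpl54, Mrps6, Mrps18c and Mrps21, between -0.69 and -0.44. Without both arrays the 16 differences lay between -1.03 and -0.38.

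The count at 10 mg/kg was 10 without WT 0 mg/kg replicate 1, 32 without WT 3 mg/kg replicate 2, 8 without WT 10 mg/kg replicate 2, 9 without Null 0 mg/kg replicate 2, and 36, 9 and 10 without Null 10 mg/kg replicate 1, 3 and 4. The count at 3 mg/kg ranged from 0 to 28 as single arrays were left out, and the 28 came without WT 3 mg/kg replicate 2. It was 13 without Null 3 mg/kg replicate 3, 10 without Null 0 mg/kg replicate 1, 3 without WT 10 mg/kg replicate 4, Null 0 mg/kg replicate 5 or Null 10 mg/kg replicate 3, and 1 without WT 0 mg/kg replicate 5 or WT 10 mg/kg replicate 1, 3 or 5. It was 0 without WT 0 mg/kg replicate 1, 3 or 4, WT 3 mg/kg replicate 1, 3, 4 or 5, Null 0 mg/kg replicate 2, 3 or 4, or Null 3 mg/kg replicate 1, 2, 4 or 5.

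**Figure D3:**
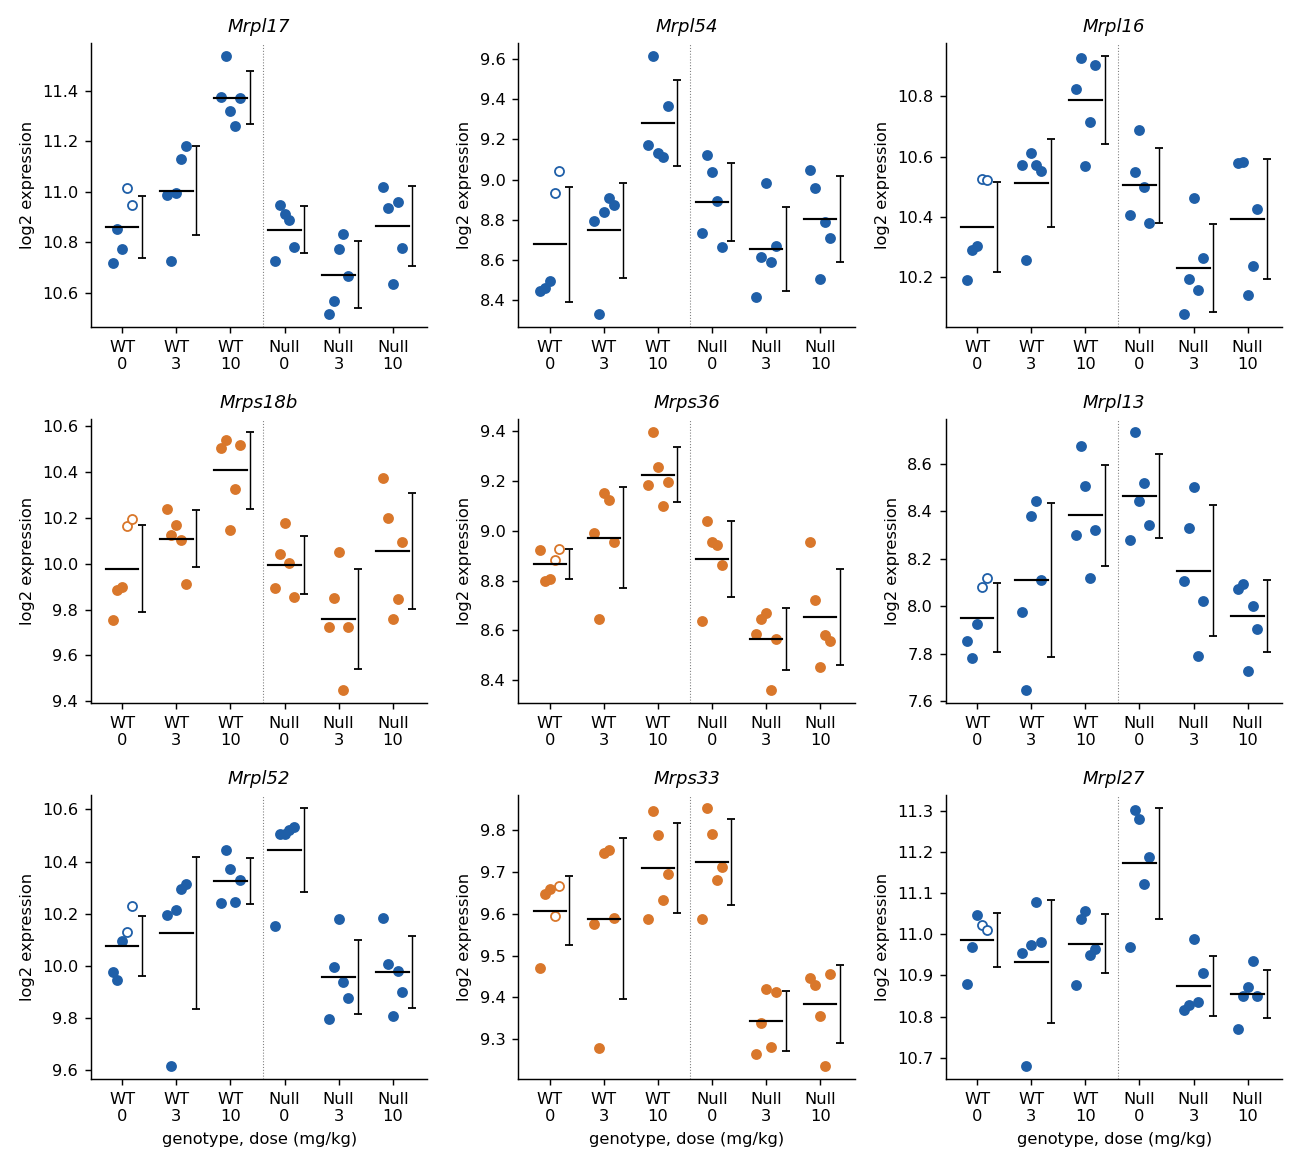
Log2 expression (vertical axis) of 9 members in each array (points), by genotype and dose of PFOS in mg/kg, with the group mean (line) and SD (bar, n = 5). Open points are WT 0 mg/kg replicates 4 and 5. Mrpl17, Mrpl54, Mrpl16, Mrps18b and Mrps36 are highest in WT 10 mg/kg, while Mrpl13, Mrpl52, Mrps33 and Mrpl27 are lower in Null 10 mg/kg than in Null 0 mg/kg.

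Between the genotypes at 0 mg/kg, 0 of the 76 members were called by limma, against 1.58% of all genes, with a median of 0.12 higher in Null mice, 17 higher and 0 lower at an unadjusted p under 0.05, and 3 higher by the methods' t-test at its unadjusted limit and 0 after Benjamini-Hochberg. Without WT 0 mg/kg replicates 4 and 5, Mrpl13 was called higher in Null mice (0.61 (adjusted p = 0.0395), against 1.09% of all genes called higher). Left out singly, WT 3 mg/kg replicate 2 or Null 0 mg/kg replicate 1 gave 2 calls at 0 mg/kg, and WT 3 mg/kg replicate 4, WT 10 mg/kg replicate 2 or Null 3 mg/kg replicate 3 or 4 gave 1. Among treated mice, 24 of the 76 members were lower in Null than in WT liver at 3 mg/kg (15 large and 9 small) and 0 higher, with a median of -0.19, against 5.09% of all genes called lower. The 3′ minus 5′ difference of the Actb control probe sets, a sign of RNA integrity, did not overlap between these groups (0.46 to 0.50 in Null 3 mg/kg and 0.33 to 0.44 in WT 3 mg/kg). That of the Gapdh control probe sets lay the other way, at 0.095 to 0.159 in Null 3 mg/kg and 0.158 to 0.217 in WT 3 mg/kg. The part of RNA integrity in the result was not tested. At 10 mg/kg, 33 were lower (20 large and 13 small) and 0 higher, with a median of -0.24, against 7.83% of all genes. Single arrays moved both counts. At 3 mg/kg it was 12, 12 and 13 without WT 3 mg/kg replicate 1, 3 and 4, and 14 without Null 3 mg/kg replicate 1, 2 or 4. At 10 mg/kg it was 17 and 20 without WT 10 mg/kg replicate 2 and 5, and 18 and 19 without Null 10 mg/kg replicate 3 and 4.

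The medians of the large and the small subunit lay close together in each comparison. At 10 mg/kg in WT mice the median log2 change was 0.17 over the 47 large subunit genes and 0.19 over the 29 small subunit genes, with 19.1% and 24.1% called higher, and 0.22 for both with 36.2% and 37.9% called without WT 0 mg/kg replicates 4 and 5. In Null mice it was -0.27 and -0.25 at 3 mg/kg, with 34.0% and 24.1% called lower, and -0.19 and -0.16 at 10 mg/kg, with 19.1% and 10.3% called lower. The difference in response at 10 mg/kg had medians of -0.35 and -0.36, or -0.39 and -0.40 without both arrays. Within an array the large subunit mean minus the small subunit mean was 0.26 ± 0.01 (SD, n = 5) in WT 0 mg/kg (0.27 without replicates 4 and 5), 0.28 ± 0.03 in WT 3 mg/kg and 0.25 ± 0.02 in WT 10 mg/kg, and 0.28 ± 0.02, 0.27 ± 0.03 and 0.24 ± 0.04 in Null mice at the same doses. The array ranges of this difference overlapped between every dose and its control. No test was run between the subunits, and these values describe the members.

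Symbols do not always give the place of a protein. Mrps18a and Mrps30 carry small subunit names but are located in the large subunit of the mammalian mitoribosome. Mrps18a measured 10.02, 10.10, 9.81, 9.83 and 10.06 in WT 10 mg/kg and 9.46, 9.47, 9.52, 9.80 and 9.78 in WT 0 mg/kg, with control replicates 4 and 5 just below the lowest treated array. Counted as large, these 2 genes left medians of 0.19 and 0.18 for the large and small subunit in WT at 10 mg/kg. Of the relatives of S18, Mrps18a and Mrps18b rose in WT at 10 mg/kg (0.36 and 0.43) and were not called in Null mice at 10 mg/kg (-0.08 and 0.06), while Mrps18c was at 0.06 ± 0.09 (SE) in WT and fell in Null mice (-0.38). The difference in response at 10 mg/kg was -0.44 (adjusted p = 0.141) for Mrps18a, -0.37 (adjusted p = 0.248) for Mrps18b and -0.44 (adjusted p = 0.044) for Mrps18c. With control replicates 4 and 5 left out it was -0.56, -0.50 and -0.47. Whether these 3 genes differ from one another was not tested. Mrps30 changed by 0.21 (adjusted p = 0.0845) in WT and -0.05 (adjusted p = 0.799) in Null mice at 10 mg/kg.

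With all arrays no member was called in opposite directions in the 2 genotypes, as the 16 called higher in WT at 10 mg/kg shared 0 with the 23 called lower in Null at 3 mg/kg and 0 with the 12 called lower in Null at 10 mg/kg. Over all genes tested, 9 of the 915 called higher in WT at 10 mg/kg (0.984%) were called lower in Null at 3 mg/kg (2.36% of the 381) and 9 in Null at 10 mg/kg (1.49% of the 603). Members did overlap without WT 0 mg/kg replicates 4 and 5. Mrpl11 (0.23 in WT), Mrpl12 (0.23) and Mrpl57 (0.36) were then called higher in WT at 10 mg/kg and lower in Null at 3 mg/kg, which is 10.7% of the 28 and 13.0% of the 23, and Mrpl13 (0.53 (adjusted p = 0.028)) was called higher in WT and lower in Null at 10 mg/kg, which is 3.6% of the 28 and 8.3% of the 12. The same shares over all genes were 1.05% and 4.72% at 3 mg/kg and 0.526% and 1.49% at 10 mg/kg. The brighter probe set of Mrpl13 was called in neither genotype at 10 mg/kg on all arrays (0.20 in WT and -0.22 in Null mice). The brightest of Mrpl11 was not called in Null at 3 mg/kg (-0.28 (adjusted p = 0.105)). On all arrays, the 12 called in Null at 10 mg/kg had a median of 0.07 in WT at 10 mg/kg (range -0.0087 to 0.43), and the 16 called in WT had a median of -0.02 in Null at 10 mg/kg (range -0.23 to 0.26). Of the 76, 60 lay above 0 in WT and below 0 in Null at 10 mg/kg, 11 above 0 in both, 5 below 0 in both and 0 below 0 in WT and above 0 in Null. Over all genes tested, 17.7% lay above 0 in WT and below 0 in Null, 31.3% above 0 in both, 31.9% below 0 in both and 19.1% below 0 in WT and above 0 in Null. Without WT 0 mg/kg replicates 4 and 5 the members above 0 in WT and below 0 in Null were 59, against 16.3% of all genes. The WT and Null changes at 10 mg/kg, which share no arrays, ran together across the 76 genes with a Pearson r of 0.415 and a Spearman rho of 0.47 (0.418 and 0.455 over the 47 large and 0.416 and 0.466 over the 29 small subunit genes). These are beside an r of 0.472 and a rho of 0.409 over all genes tested, and without WT 0 mg/kg replicates 4 and 5 the values were 0.438 and 0.47 over the members and 0.588 and 0.482 over all genes. The genes of an array share its RNA and hybridization and are not independent replicates, so this is a description. The change in WT had a rho of -0.077 with the mean signal of the probe set and of -0.079 with the length of the gene, and the change in Null mice at 3 mg/kg a rho of -0.227 (r -0.317) with the mean signal, again across the 76 genes.

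**Figure D4:**
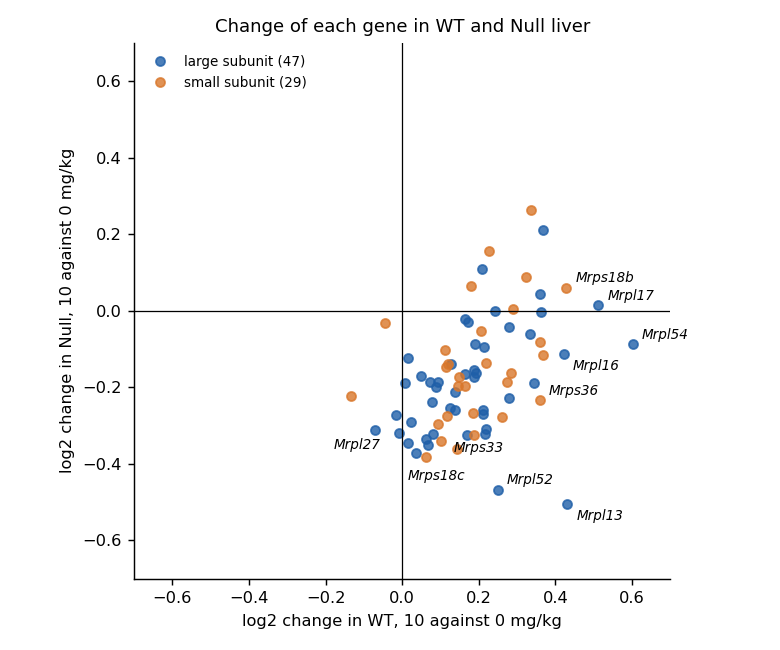
Log2 change of each member at 10 against 0 mg/kg in WT (horizontal axis) and Null mice (vertical axis), with large and small subunit genes in separate colours and 10 genes named. Of the 76 points, 60 lie at the lower right, above 0 in WT and below 0 in Null mice, and large and small subunit genes are mixed.

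Of the genes that the study lists under ribosome biogenesis, 7 are members. By the study's account the changes in this category were found by gene set enrichment over all expressed genes, with a set fixed beforehand. How the genes of the list were picked is not stated, so that the values of these 7 are a description. Mrpl17 and Mrps18a rose in WT at 10 mg/kg (above). Mrpl13 and Mrpl33 fell in Null at 10 mg/kg, and Mrpl12, Mrpl23, Mrpl33 and Mrps12 in Null at 3 mg/kg. Mrpl33, the counterpart of bacterial L33, measured 7.46, 7.90, 7.64, 7.64 and 7.52 in Null 0 mg/kg, 7.28, 7.38, 7.38, 7.02 and 7.25 in Null 3 mg/kg and 7.30, 7.42, 7.22, 7.25 and 7.20 in Null 10 mg/kg. Every treated array lay below every control array. Mrpl23, whose bacterial counterpart stands at the exit of the tunnel, measured 10.53, 10.61, 10.61, 10.63 and 10.61 in Null 0 mg/kg, 10.02, 10.19, 10.33, 9.96 and 10.19 in Null 3 mg/kg and 10.59, 10.43, 10.22, 10.22 and 10.24 in Null 10 mg/kg. The controls were tight and above all arrays of 3 mg/kg, while replicate 1 of 10 mg/kg lay among them, with changes of -0.46 (adjusted p = 0.00893) and -0.26 (adjusted p = 0.0814).

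Mrpl12, a stalk protein that has also been found bound to the mitochondrial RNA polymerase, measured 10.79, 10.81, 10.93, 10.95 and 10.87 in Null 0 mg/kg, 10.57, 10.63, 10.69, 10.60 and 10.68 in Null 3 mg/kg and 10.82, 10.78, 10.65, 10.62 and 10.66 in Null 10 mg/kg. All arrays of 3 mg/kg lay below the controls (-0.24 (adjusted p = 0.0464)), and at 10 mg/kg the groups overlapped (-0.16 (adjusted p = 0.13)). In WT liver Mrpl12 measured 10.71, 10.70, 10.54, 10.75 and 10.76 at 0 mg/kg and 10.84, 11.05, 10.89, 10.78 and 10.85 at 10 mg/kg, where the groups were separate (0.19 (adjusted p = 0.0604)). Mrps12, the counterpart of the bacterial decoding protein S12, measured 9.87, 10.10, 9.96, 10.02 and 9.99 in Null 0 mg/kg, 9.58, 9.71, 9.77, 9.59 and 9.56 in Null 3 mg/kg and 10.11, 9.82, 9.62, 9.78 and 9.62 in Null 10 mg/kg. It fell at 3 mg/kg (-0.35 (adjusted p = 0.0418)) with separate groups, and at 10 mg/kg replicate 1 was at the level of the highest control (-0.20 (adjusted p = 0.203)).

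Several members are measured by more than 1 probe set, and these did not always move alike. Of the 76 members, 34 had several probe sets above the filter, and in 22 of these all had the same sign in WT at 10 mg/kg, while in Null mice 24 did at each dose. In 0 members were 2 probe sets called in opposite directions in these comparisons. The call of Mrpl17 rested on 1 probe set with a mean of 10.94, and its other 2, with means of 5.96 and 5.61 near the filter, changed by -0.0067 and 0.07. The 3 probe sets of Mrpl52 changed by -0.47, -0.34 and -0.31 in Null at 10 mg/kg. For Mrpl13 the brighter probe set (mean 10.33) changed by -0.22 (adjusted p = 0.132) in Null at 10 mg/kg, against the -0.50 of the one with the smaller p (mean 8.17). In WT at 10 mg/kg the brighter one changed by 0.20 (adjusted p = 0.0983). Its difference in response was -0.42 (adjusted p = 0.0361). Both probe sets of Mrps6 rose in WT, by 0.37 and 0.34. For Mrpl50 in Null at 3 mg/kg the brighter probe set (mean 10.50) changed by -0.09, against the 0.20 of the one used (mean 7.53). The brightest probe set of Mrps5 (mean 8.95) changed by -0.0072 and 0.0086 in Null at 3 and 10 mg/kg. The one used for Mrps5 changed by 0.07 and 0.16. The signal of the probe sets used ran from 6.32 (Mrps9), 7.23 (Mrps5) and 7.47 (Mrpl33) to 10.94 (Mrpl17), 10.97 (Mrpl27) and 11.18 (Mrps24), which reflects each probe set as well as its gene and does not order the genes by abundance.

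The other genes of mitochondrial translation were counted beside the members. Of 4 tested mitoribosomal proteins with other names (Chchd1, Dap3, Gadd45gip1 and Ptcd3), 0 were called in WT at 10 mg/kg (2 higher at an unadjusted p under 0.05) and 1 was lower in Null mice at each dose, which was Chchd1 (-0.47 (adjusted p = 0.0102) at 3 mg/kg and -0.50 (adjusted p = 0.0052) at 10 mg/kg). Of 18 mitochondrial translation factors, 1 was higher in WT at 10 mg/kg, Tsfm, an elongation factor (0.30 (adjusted p = 0.0463)), and 1 was lower in Null mice at both doses, Slirp, which stabilizes mitochondrial messages (-0.49 and -0.49). The medians of this list were 0.16 in WT at 10 mg/kg, -0.02 in Null at 3 mg/kg and 0.05 in Null at 10 mg/kg. Of 19 genes for assembly of the mitoribosome and modification of its RNA, 3 were higher in WT (Ddx28 0.36, Mpv17l2 0.32 and Noa1 0.31, with a list median of 0.15), and 1 was lower in Null mice at each dose, Malsu1 (-0.34 and -0.31), with list medians of -0.0021 and 0.08. Of 20 mitochondrial tRNA synthetases and related enzymes, 4 were higher in WT, led by Ears2 (0.71 (adjusted p = 0.00289)), and in Null mice 0 were called at 3 mg/kg (1 higher at an unadjusted p under 0.05) and 1 was higher at 10 mg/kg (Wars2, 0.27), with medians of 0.14, 0.04 and 0.13. The medians of these 3 lists of factors and enzymes in Null mice lay between -0.02 and 0.13, beside -0.26 and -0.19 for the members, and the difference between the lists was not tested. Without WT 0 mg/kg replicates 4 and 5 the counts called in WT at 10 mg/kg were 2 higher of the proteins with other names (median 0.22), 5 higher and 3 lower of the translation factors (median 0.18), 6 higher of the assembly genes (median 0.19) and 7 higher of the synthetases (median 0.15).

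Of 15 regulators of mitochondrial transcription and biogenesis, 1 was higher in WT at 10 mg/kg, Tefm, which keeps mitochondrial transcription going (0.36 (adjusted p = 0.0188)), and 1 was lower, Ppargc1a, which encodes the coactivator PGC-1α (-1.01 (adjusted p = 0.00911)). The study reports no increase of Ppargc1a by array or by RT-PCR in other mice, and its discussion states no change of this gene with PFOS. In Null mice 0 of the 15 were called at either dose, with 3 of them passing an unadjusted p under 0.05 at 3 mg/kg and 5 at 10 mg/kg. Tfam, which packs and transcribes mitochondrial DNA, had a lower response in Null than in WT mice at 10 mg/kg (-0.34 (adjusted p = 0.0421)). Respiratory complex I, part of which is translated by the mitochondrial ribosome while the 35 subunits tested here are nuclear, had 1 subunit called higher in WT at 10 mg/kg (median 0.08), and 24 called lower in Null at 3 mg/kg (median -0.39) and 21 at 10 mg/kg (median -0.34). The list of cytosolic ribosomal proteins left out genes named Rps with a number alone, so that the cytosolic small subunit is largely missing from it. Of its 26 genes tested, 2 were higher in WT at 10 mg/kg (median 0.10). In Null mice 3 were lower at 3 mg/kg (median -0.18) and 1 at 10 mg/kg (median -0.05). Beside these, the members had medians of 0.18, -0.26 and -0.19 in the same 3 comparisons. The calls in WT at 10 mg/kg without control replicates 4 and 5 were 3 higher and 3 lower of the regulators (median -0.13), 3 higher and 1 lower of complex I (median 0.05) and 6 higher of the cytosolic ribosomal proteins (median 0.13), and Tfam differed in response by -0.38.

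Markers of liver cell types were followed beside the members. Of 8 hepatocyte markers tested, 3 were lower in WT at 10 mg/kg (Cps1, Ass1 and Hnf4a) and 0 were called in Null mice, where 1 at 3 mg/kg and 3 at 10 mg/kg passed an unadjusted p under 0.05. The mean of this list per array ran from 12.27 to 12.36 in WT 0 mg/kg and from 11.96 to 12.14 in WT 10 mg/kg, and from 12.31 to 12.41, 12.24 to 12.49 and 12.18 to 12.40 in Null mice at 0, 3 and 10 mg/kg. Of 12 Kupffer cell and macrophage markers, 0 were called in WT at 10 mg/kg (median -0.33) or in Null at 3 mg/kg (median -0.14), with 3 of them at an unadjusted p under 0.05 in each, and C1qc, C1qa and Cd5l were lower in Null at 10 mg/kg (median -0.39). Their mean per array ran from 8.21 to 9.46 in WT 0 mg/kg and 7.96 to 8.70 in WT 10 mg/kg, and from 8.73 to 9.21, 8.72 to 9.04 and 8.26 to 8.95 in Null mice. Of the other lists, 1 of 7 stellate markers was lower in WT at 10 mg/kg (Dcn), with a list median of -0.23. In Null at 10 mg/kg 2 of 8 endothelial markers (Lyve1 and Pecam1) were higher, while 5 of the 8 lay below 0 and the list median was -0.10. There 1 of 3 neutrophil markers (S100a8) was higher, while the other 2 lay below 0 and the list median was -0.07. The neutrophil mean per array ran from 5.34 to 6.05 in Null 0 mg/kg and from 5.67 to 7.26 in Null 10 mg/kg. In WT 0 mg/kg it was 5.46, 5.23, 6.25, 7.41 and 7.22 in replicates 1 to 5, against 7.065 to 7.28 in WT 10 mg/kg. Of the rest, 0 of 3 cholangiocyte, 4 lymphocyte and 1 erythroid markers tested were called by limma in these 3 comparisons, with 1 lymphocyte marker at 10 mg/kg in WT and 1 cholangiocyte marker at 3 mg/kg in Null mice at an unadjusted p under 0.05. The markers called lower in WT at 10 mg/kg without WT 0 mg/kg replicates 4 and 5 were 3 hepatocyte (Cps1, Hnf4a and Apoa1, but not Ass1), 1 Kupffer cell, 4 endothelial and 3 stellate markers, and 1 neutrophil marker was called higher. Among the controls then left, WT 0 mg/kg replicate 3 was high in several marker lists. Its means were 9.46 (Kupffer cell), 8.70 (endothelial), 8.76 (stellate), 6.25 (neutrophil) and 7.40 (lymphocyte). In the same order, replicates 1 and 2 measured 8.37 and 8.51, 8.22 and 8.25, 8.17 and 8.21, 5.46 and 5.23, and 6.27 and 6.22. The part of these cell types in the changes of the members was not tested. The difference between the 3′ and 5′ control probe sets, a sign of RNA integrity, ran from 0.07 to 0.22 for Gapdh and from 0.33 to 0.52 for Actb over all arrays. The groups overlapped in all pairs but Null 3 and WT 3 mg/kg for Actb (above).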

How the data were processed

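Gene expression was measured in liver RNA of 30 mice with 1 Affymetrix mouse genome array each. The authors processed the arrays with RMA (background adjustment, quantile normalization and summary per probe set), and what they deposited is 1 log2 value for each of 45101 probe sets and array. All samples were labeled and hybridized as 1 block by the study's account, which leaves no batch to test, and the number of arrays limits the precision. Quantile normalization sets the arrays to a common distribution, so a change is relative to all other transcripts.

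The 64 control probe sets were dropped, and 24069 others were kept whose log2 value exceeded the overall median (5.65) in 5 or more of the 30 arrays, since the study states a removal of weak probe sets without its rule. Probe sets were named through the platform table (34958 with 1 gene, 932 with several, 9211 unnamed), with symbols updated through the Entrez number. The members have 156 probe sets, of which 131 were kept. Mrpl30 and Mrpl53 lie only on probe sets with several genes and are not included. Where a gene had several, one was used throughout, namely that whose moderated F over the 4 effects of dose gave the lowest p. Tests used limma 3.58.1 (lmFit, eBayes; R 4.3.3), within each genotype on its 15 arrays for doses and on all 30 arrays for comparisons of genotypes, and a gene was called at a Benjamini-Hochberg adjusted p under 0.05 over all probe sets kept. The steps were tested on simulated data. Animals with the same replicate number were not paired. Figures were drawn with matplotlib 3.10.9.

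The members and all gene lists were chosen with earlier results of these data known. Named are the called members with the 10 smallest p in WT 10 and Null 10 against 0 mg/kg and in the response at 10 mg/kg, the 5 highest and 5 lowest changes in WT 10, Null 3 and Null 10 against 0 mg/kg, the study's own ribosome genes, the S18 relatives with Mrps30 and the 3 strongest and 3 weakest signals. Values in every array are given for the 5 smallest p in WT 10 and Null 10 against 0 mg/kg and in the response at 10 mg/kg, and for the called genes of the study's list. Mrpl14, Mrpl19, Mrpl21, Mrpl35, Mrpl41, Mrpl58, Mrps14, Mrps16, Mrps21 and Mrps34 fall outside this rule and were named after their values were seen. Alternatives were another filter, probe set choice, array scaling, limma settings, sets of arrays, a replicate block, the methods' t-test and each array left out.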

Additional observations from a re-analysis of the deposited data

Results flagged for a closer look

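Single arrays far from the other 4 of their group were looked for in the 18 members given in full and in both subunit means, over 120 groups of 5, and 8 were found. Chance alone marks about 1 in 20 groups. Replicate 2 of WT 3 mg/kg was low in 4 of them, with Mrpl16 at 10.25 against 10.55 to 10.61, Mrpl23 at 9.94 against 10.43 to 10.51, Mrpl52 at 9.62 against 10.20 to 10.31 and Mrpl54 at 8.33 against 8.80 to 8.91 (log2 expression). Replicate 1 of Null 0 mg/kg was low in 2, with Mrpl23 at 10.53 against 10.61 to 10.63 and Mrpl52 at 10.15 against 10.50 to 10.53. Replicate 2 of WT 10 mg/kg was high in Mrpl11 at 9.18 against 8.96 to 9.02, and replicate 3 of WT 0 mg/kg was low in Mrpl12 at 10.54 against 10.70 to 10.76. The cause was not tested.

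The response of 16 members to 10 mg/kg differed between the genotypes by the test of the difference itself (limma, adjusted p under 0.05), with these differences of Null minus WT on the log2 scale: Mrpl11 (-0.47), Mrpl13 (-0.94), Mrpl52 (-0.72), Mrpl55 (-0.53), Mrps36 (-0.59), Mrpl12 (-0.36), Mrpl43 (-0.36), Mrpl51 (-0.53), Mrps11 (-0.54), Mrps33 (-0.44), Mrpl17 (-0.50), Mrpl16 (-0.53), Mrps21 (-0.45), Mrps6 (-0.49), Mrps18c (-0.44) and Mrpl54 (-0.69). All were lower in Null mice. At 3 mg/kg the same test called Mrpl11 (-0.41), Mrpl21 (-0.44), Mrps24 (-0.42), Mrpl12 (-0.33) and Mrpl20 (-0.42). These 5 were not called without WT 0 mg/kg replicates 4 and 5.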

How the results depend on the processing

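In the alternatives run, 0 members were called in the direction opposite to that reported, while the number called moved. The 256 values of the large and small subunit medians all kept their sign, with ranges of 0.13 to 0.22 (large) and 0.15 to 0.22 (small) in WT at 10 mg/kg, -0.32 to -0.23 and -0.31 to -0.20 in Null at 3 mg/kg, -0.23 to -0.16 and -0.21 to -0.13 in Null at 10 mg/kg, and -0.39 to -0.30 and -0.43 to -0.30 for the difference in response at 10 mg/kg. Of 2050 values of single members, 1591 kept their side of the threshold, 453 no longer passed it and 6 turned sign, all 6 where probe sets with an ID ending in _s_at, _x_at or _a_at were left out. These were Mrpl15 (-0.0304), Mrpl17 (-0.0067) and Mrpl38 (-0.0592) in WT at 10 mg/kg, Mrpl35 (0.0027) in Null at 3 mg/kg, and Mrpl17 (0.13) and Mrpl51 (0.0524) in the difference in response at 10 mg/kg, each then read from another probe set.

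With no filter, which raises the probe sets tested to 45037, the counts were 10 in WT at 10 mg/kg, 1 for WT 10 against 3 mg/kg, 15 and 7 in Null at 3 and 10 mg/kg, and 0 for the difference in response at 3 mg/kg. Without the _s_at, _x_at and _a_at probe sets they were 10 in WT at 10 mg/kg, 13 in Null at 3 mg/kg, 1 for the response at 3 mg/kg and 13 for Null against WT at 3 mg/kg. With each array shifted to the same median they were 13 and 7 in Null at 3 and 10 mg/kg, 0 for the response at 3 mg/kg, and 11 and 20 for Null against WT at 3 and 10 mg/kg. Repeated quantile normalization gave 8 for the response at 3 mg/kg. With the compared groups alone in the fit they were 9 in WT at 10 mg/kg, 7 in Null at 10 mg/kg, 0 for the response at 3 mg/kg, and 13 and 19 for Null against WT at 3 and 10 mg/kg. The methods' t-test at its unadjusted limit of 0.0025 gave 10 in WT at 10 mg/kg, 1 for WT 10 against 3 mg/kg (0 after Benjamini-Hochberg), 14 and 25 for the response at 3 and 10 mg/kg, 3 for Null against WT at 0 mg/kg and 21 at 10 mg/kg. Without WT 0 mg/kg replicates 4 and 5 the counts were 28 in WT at 10 mg/kg, 9 for WT 10 against 3 mg/kg, 0 for the response at 3 mg/kg and 1 for Null against WT at 0 mg/kg. Beyond the construction of these alternatives, the cause was not tested.

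Leaving out each array in turn gave 0 to 0 calls for WT 3 against 0 mg/kg and Null 10 against 3 mg/kg, 5 to 27 for WT 10 against 0 mg/kg, 0 to 7 for WT 10 against 3 mg/kg, 6 to 30 and 4 to 23 in Null at 3 and 10 mg/kg, 0 to 28 and 8 to 36 for the response at 3 and 10 mg/kg, and 0 to 2, 12 to 35 and 17 to 43 for Null against WT at 0, 3 and 10 mg/kg.

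Samples with the same replicate number did not deviate together (correlations of their deviations from -0.239 to 0.357, with each sample closest to its own number in at most 2 of 5), so they share only a number. With the replicate number as a block the counts were 9 in WT at 10 mg/kg, 0 for WT 10 against 3 mg/kg, 14 and 7 in Null at 3 and 10 mg/kg and 2 for the response at 3 mg/kg. The number of arrays limits what can be called: changes of about the size of the medians here did not pass the test in most members.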
